A study of Mus musculus with 8 samples.

Results

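The 40 mitosis and G2/M genes described here encode the cyclins, kinases, kinetochore proteins, motors and regulators that take a cell from the end of DNA replication through division. They were chosen by symbol, as a list of known cell-cycle genes, and matched by gene ID to 40 of the 45777 genes in the count table. All 40 passed the filter on low counts and were among the 16750 genes tested. Expression was measured by RNA-seq of poly(A) RNA in primary CD8+ T cells, the cytotoxic arm of the T cell lineage, taken from the lymph nodes and spleen of C57BL/6 mice. All groups were activated with antibodies against CD3 and CD28, which mimic antigen and costimulation, and treatment with a compound or with the vehicle lasted 48 hours in all of them. The groups were EnPGC-1, SGC-CBP30 (a small molecule that blocks the CBP and p300 bromodomains), Ctrl PIP and the vehicle DMSO, with 2 libraries each. The series text names EnPGC-1, Ctrl PIP and SGC-CBP30 together as the treatments set against DMSO. The labels give no doses, ages or sex. Nor do they say whether the libraries of a group are from different mice or cultures, so the spread behind each p-value may be technical.

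A T cell that has received antigen and costimulation leaves quiescence, grows and then divides many times in quick succession. Entry into mitosis is driven by the kinase CDK1 bound to cyclin A or cyclin B, which CDC25 phosphatases switch on, and exit follows when the anaphase-promoting complex marks the cyclins for destruction. Most messages of this list are made in late S phase and G2, under the DREAM, B-MYB and FOXM1 transcription complexes, and are scarce in resting lymphocytes, so in bulk RNA their level follows the share of cells in those phases. In these bulk libraries, fewer cells in G2 and mitosis and less of each message per cell cannot be told apart.

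Total counts ranged from 38890043 to 55491261 per library, and 18348 to 19057 genes were detected. The lowest count of any of the 40 genes in any library was 373 and the highest was 65817, so counting error was small beside the difference between libraries. The 10 markers of CD8 T cell identity were all detected in all groups and summed to between 4289 and 6060 CPM (counts scaled to a library of fixed size) per library. Markers of CD4 T cells, B cells, myeloid cells and NK cells summed to at most 38.7, 59.8, 22.8 and 81.1 CPM in any library. The NK cell sum, highest in DMSO replicate 2, was carried there by Eomes at 73.1 CPM, with Ncr1 and Klra8 at 0.

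All 40 genes had their lowest level in the same library, replicate 1 of EnPGC-1, whatever their role. The other library of that group was not low: the 40 genes summed to 2627 and 6636 CPM in EnPGC-1 replicates 1 and 2, 5810.2 and 8069 CPM with SGC-CBP30, 6429.6 and 6235 CPM with Ctrl PIP, and 4379 and 6691 CPM with DMSO. Throughout, the values of a group are given as replicate 1, then replicate 2. The second lowest library was DMSO replicate 1 for 38 of the 40 genes, DMSO replicate 2 for Mki67 and Ctrl PIP replicate 2 for Cdc25b. For Cdc25b the lowest 2 were nearly level, at 168.9 CPM in EnPGC-1 replicate 1 and 169.4 CPM in Ctrl PIP replicate 2. The highest library was SGC-CBP30 replicate 2 for 24 genes, DMSO replicate 2 for 15 and EnPGC-1 replicate 2 for Cdc25b. Relative to each gene's mean over the 8 libraries, the median of the 40 genes on the log2 CPM scale was -1.17 and 0.30 with EnPGC-1, -0.02 and 0.49 with SGC-CBP30, 0.30 and 0.21 with Ctrl PIP, and -0.41 and 0.33 with DMSO. The same median over all genes tested lay between -0.002 and 0.020 in each library. How many of all genes tested had their lowest or highest level in each library was not counted.

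**Figure D1:**
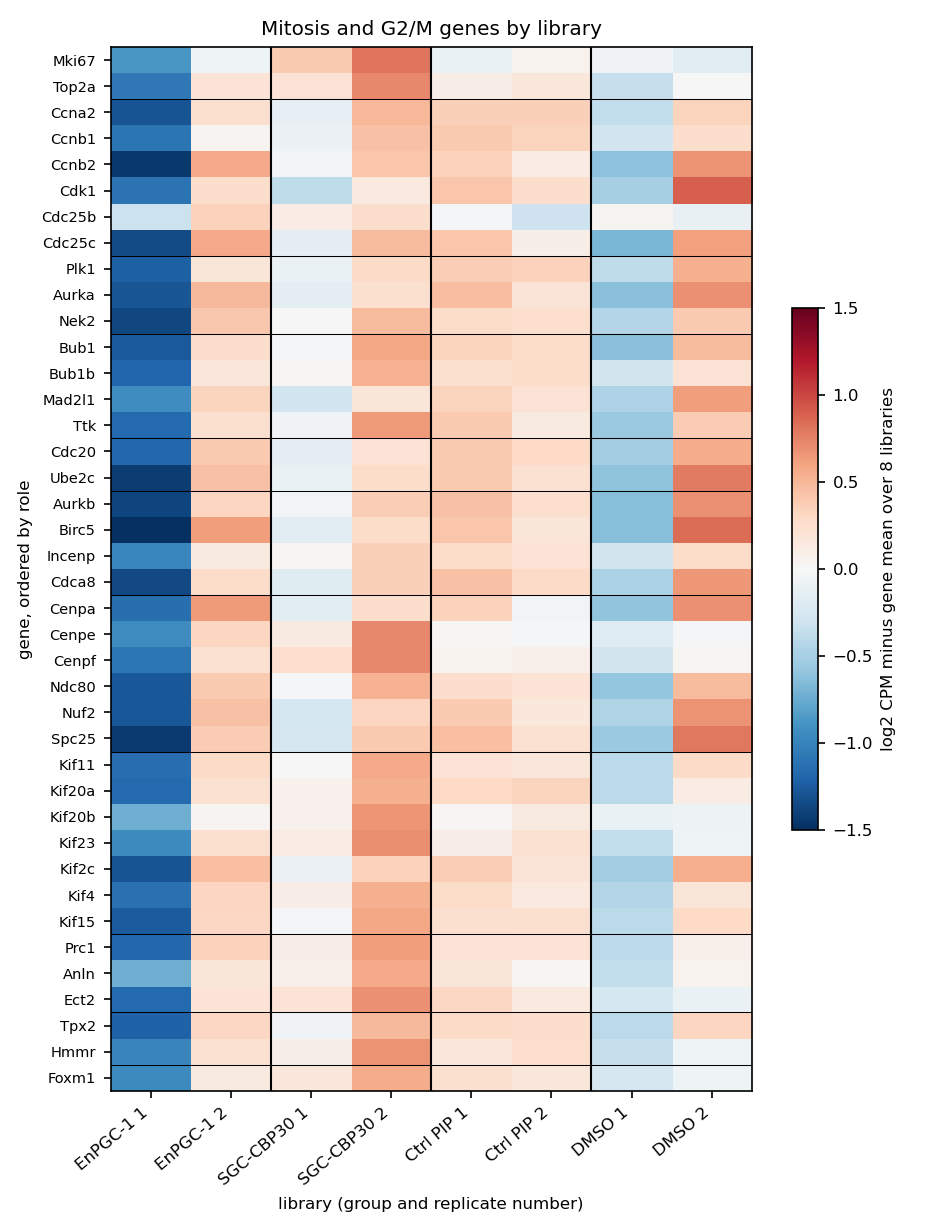
Level of each of the 40 genes (rows, ordered by role) in each of the 8 libraries (columns), as log2 CPM minus the gene's mean over the libraries, with blue below and red above that mean. The column of EnPGC-1 replicate 1 is the lowest in all 40 rows, nearly level with Ctrl PIP replicate 2 for Cdc25b. The second library of EnPGC-1 is above the mean for most genes.

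The 40 genes moved nearly as one across the libraries. A single principal component held 92% of their variance in log2 CPM, the correlation of a gene with the median profile of the list was 0.968 at the median gene, over 8 libraries, and 2 genes correlated with a median of 0.936. These correlations describe 8 libraries that all genes share, and so carry one difference between libraries many times over. Tpx2, which targets Aurora A to the spindle, came closest to the common profile, with a correlation of 0.999. The ratio of a gene's highest library to its lowest had a median of 3.47 and ran to 5.19 for Birc5, the survivin subunit of the chromosomal passenger complex. It was smallest, at 1.58, for Cdc25b, a phosphatase that starts the activation of CDK1.

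The 2 libraries of EnPGC-1 differed by more, at the median gene, than any group did from another in the fitted means given below. Within EnPGC-1, all 40 genes were higher in replicate 2, by 1.58-fold for Cdc25b up to 4.51-fold for Birc5 and 2.70-fold at the median gene. Within SGC-CBP30 all 40 were higher in replicate 2, by 1.12-fold to 1.62-fold. In Ctrl PIP the ratio of replicate 2 to replicate 1 lay between 0.770 and 1.12, with 10 genes above 1. In DMSO it lay between 0.897 and 2.77, with 38 genes above 1.

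Library features moved with this pattern. The libraries with the lowest member levels, EnPGC-1 replicate 1 and DMSO replicate 1, also had the fewest total counts, 38890043 and 41314599. The 7 erythroid and platelet markers summed to 44.8 and 11.3 CPM with EnPGC-1, 9.88 and 2.26 CPM with SGC-CBP30, 6.58 and 4.74 CPM with Ctrl PIP, and 22.9 and 7.45 CPM with DMSO, highest in the same 2 libraries. That sum was carried by the platelet genes Pf4, at 24.0 and 0.538 CPM with EnPGC-1 and 11.4 and 0 CPM with DMSO, and Ppbp, at 10.5 and 0 CPM with EnPGC-1 and 7.18 and 0 CPM with DMSO. The globin gene Hbb-bs went the other way, at 4.44 and 6.76 CPM with EnPGC-1 and 1.47 and 4.15 CPM with DMSO. Alas2, the first enzyme of heme synthesis in red cells, was at 0 in both libraries of SGC-CBP30. The 8 myeloid markers, all detected with EnPGC-1 and with DMSO, summed to 22.8 and 7.78 CPM with EnPGC-1, 9.74 and 8.92 CPM with SGC-CBP30, 9.20 and 11.2 CPM with Ctrl PIP, and 11.01 and 10.6 CPM with DMSO. The 4 CD4 T cell markers, all detected in every group, summed to 30.8 and 14.9 CPM with EnPGC-1, 20.03 and 20 CPM with SGC-CBP30, 19.3 and 19.5 CPM with Ctrl PIP, and 38.7 and 14.8 CPM with DMSO, so their sum was highest in those 2 libraries. Cd4 and Foxp3 were highest in both of them. Zbtb7b was lowest of the 8 libraries in EnPGC-1 replicate 1, at 5.12 CPM, but highest in DMSO replicate 1, at 13.2 CPM. The 8 B cell markers summed to 59.8 and 47.2 CPM with EnPGC-1, 23.7 and 19.1 CPM with SGC-CBP30, 40.5 and 25.2 CPM with Ctrl PIP, and 56.9 and 42.7 CPM with DMSO. S100a8 and Cd14 were at 0 in both Ctrl PIP libraries, and Adgre1 and Cd14 in both SGC-CBP30 libraries. The part of depth and of these other cells in the levels of the mitosis genes was not tested.

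Levels of different genes were compared only per kilobase of the longest annotated transcript. On that scale Top2a, the topoisomerase that untangles replicated chromosomes, was the most abundant of the list at 147 CPM per kilobase, averaged over the 8 libraries. It was followed by Ccnb2, a B-type cyclin, at 93.7, Cdc20, an activator of the anaphase-promoting complex, at 84.2, and Ccna2, cyclin A, at 78.4 CPM per kilobase. Mki67, the chromosome surface protein detected by Ki-67 antibodies, followed among these at 73.3 CPM per kilobase. The lowest were Anln, the actin-binding anillin of the cleavage furrow, at 6.42, and Cdc25c, another activating phosphatase of CDK1, at 9.53 CPM per kilobase. The longest transcript may not be the one these cells use most, so these levels are approximate.

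Because the 40 genes varied together, the DNA in front of their transcription starts was searched for short motifs that textbooks tie to cell-cycle genes. The CHR element (TTTGAA or TTCGAA) is bound by the DREAM and B-MYB complexes, and the CCAAT box by the factor NF-Y. Both strands were searched, in RefSeq promoter windows of 300 bases (250 before and 50 after the start, mouse build GRCm38.p6, the build called mm10). A match of one motif can share at most 1 edge base with a match of the other. Where a gene had more than 1 window, the first listed was used. The table had windows for 33 of the 40 genes. It had none for Ccna2, Cdc25c, Aurkb, Incenp, Kif20a, Tpx2 and Foxm1. CHR letters were in 27 of the 33 windows (81.8%), against 19.4% of the windows of all 27025 genes, and CCAAT letters in 25 (75.8%), against 37.9%. Both were in 22 (66.7%), against 7.70% of all genes. All genes here means every gene with a window, expressed in these cells or not, and the share among the genes tested was not measured. The Cdc25b window, whose gene followed the common profile least, held CHR letters 7 bases after the start and CCAAT letters 28 bases before it. These matches are letters in a window, not sites shown to be bound in these cells.

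The 100 bases that end at the base before the start are shown, 5′ to 3′ on the gene's strand, for 5 genes that carry both motifs there and for Ccnb1, which has CCAAT boxes but no CHR letters in its window. Capitals mark CHR letters (TTTGAA, or TTCAAA where the match is on the other strand) and CCAAT boxes (CCAAT, or ATTGG on the other strand). They lie at chr10:69352913-69353012 on the minus strand for Cdk1, chr4:118437344-118437443 minus for Cdc20, chr2:164769829-164769928 plus for Ube2c, chr11:99024190-99024289 minus for Top2a, chr19:37376282-37376381 plus for Kif11 and chr13:100786487-100786586 minus for Ccnb1.
Cdk1: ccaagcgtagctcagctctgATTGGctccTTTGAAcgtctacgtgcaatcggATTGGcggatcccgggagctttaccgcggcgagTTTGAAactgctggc
Cdc20: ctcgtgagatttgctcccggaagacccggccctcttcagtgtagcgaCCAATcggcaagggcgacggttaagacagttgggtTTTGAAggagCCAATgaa
Ube2c: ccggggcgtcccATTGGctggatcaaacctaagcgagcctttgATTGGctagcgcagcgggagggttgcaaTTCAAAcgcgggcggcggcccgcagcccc
Top2a: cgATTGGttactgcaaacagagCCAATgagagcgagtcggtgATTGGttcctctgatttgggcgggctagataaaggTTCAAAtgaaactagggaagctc
Kif11: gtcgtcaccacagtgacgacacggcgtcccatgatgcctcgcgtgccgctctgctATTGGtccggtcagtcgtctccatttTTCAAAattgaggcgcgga
Ccnb1: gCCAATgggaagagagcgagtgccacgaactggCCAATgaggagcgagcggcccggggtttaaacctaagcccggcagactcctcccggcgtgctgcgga

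Of the 6 genes whose windows held no CHR letters, Ccnb1, Cenpe and Nek2 had CCAAT letters, and Birc5, Mad2l1 and Nuf2 had neither motif. Their SD from the median profile of the list over the 8 libraries ran from 0.092 for Nek2 and 0.133 for Ccnb1 to 0.301 for Birc5, and over all 40 genes it ran from 0.029 to 0.473.

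Among the proliferation markers, Mki67 was at 384 and 673 CPM with EnPGC-1, 924 and 1228 CPM with SGC-CBP30, 654 and 731 CPM with Ctrl PIP, and 679.5 and 628 CPM with DMSO. Both SGC-CBP30 libraries lay above the 6 others, and Ctrl PIP and DMSO overlapped. The gene spans chr7:135689784-135716450. Top2a was at 348 and 841 CPM with EnPGC-1, 846 and 1207 CPM with SGC-CBP30, 785 and 821 CPM with Ctrl PIP, and 576 and 725 CPM with DMSO. SGC-CBP30 was again above every other library, although its lower library exceeded the higher EnPGC-1 library only narrowly.

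Of the cyclins, CDK1 and the CDC25 phosphatases, Ccna2 was at 88.9 and 258 CPM with EnPGC-1, 201 and 308 CPM with SGC-CBP30, 280.4 and 279.5 CPM with Ctrl PIP, and 169 and 275 CPM with DMSO. Ccnb1, cyclin B1, was at 50.1 and 110.1 CPM with EnPGC-1, 100.5 and 145 CPM with SGC-CBP30, 140.3 and 136 CPM with Ctrl PIP, and 88.1 and 128 CPM with DMSO. In both cyclins the EnPGC-1 libraries lay below both Ctrl PIP libraries, which were close together, while EnPGC-1 and DMSO overlapped.

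Cdk1, which the cyclins activate, was at 46.6 and 119.8 CPM with EnPGC-1, 76.9 and 110.5 CPM with SGC-CBP30, 134 and 121 CPM with Ctrl PIP, and 71.0 and 186 CPM with DMSO. The libraries of EnPGC-1, by a narrow margin, and of SGC-CBP30 lay below both of Ctrl PIP, and DMSO spanned most of the range. Cdc25b was at 169 and 267 CPM with EnPGC-1, 227 and 254 CPM with SGC-CBP30, 208 and 169 CPM with Ctrl PIP, and 217 and 195 CPM with DMSO. It was the gene farthest from the median profile of the list, with an SD of 0.473 over 8 libraries, and the only one higher with EnPGC-1 than with DMSO in the fitted means.

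The other genes farthest from that profile were Mki67, with an SD of 0.387, and Birc5 and Kif20b, with 0.301 each. Birc5 was at 48.3 and 218 CPM with EnPGC-1, 126 and 170.2 CPM with SGC-CBP30, 188 and 159.6 CPM with Ctrl PIP, and 90.4 and 251 CPM with DMSO. Its DMSO and EnPGC-1 libraries enclosed those of the other groups on both sides. Kif20b, a kinesin that takes part in completing cytokinesis, was at 42.3 and 72.5 CPM with EnPGC-1, 73.8 and 111 CPM with SGC-CBP30, 71.6 and 77.3 CPM with Ctrl PIP, and 65.7 and 66.7 CPM with DMSO. Both its SGC-CBP30 libraries were above both of EnPGC-1 and both of DMSO.

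Among the kinases and the passenger complex, Plk1, the polo kinase needed for spindle and kinetochore function, was at 46.6 and 124 CPM with EnPGC-1, 102 and 134 CPM with SGC-CBP30, 141 and 139 CPM with Ctrl PIP, and 84.4 and 158 CPM with DMSO. Aurkb, the kinase of the chromosomal passenger complex that corrects faulty attachments, was at 40.7 and 132 CPM with EnPGC-1, 103 and 137 CPM with SGC-CBP30, 144 and 126 CPM with Ctrl PIP, and 68.1 and 170.4 CPM with DMSO. Incenp, the scaffold of that complex, was at 94.2 and 204 CPM with EnPGC-1, 189 and 238 CPM with SGC-CBP30, 225 and 216 CPM with Ctrl PIP, and 153 and 225 CPM with DMSO. Plk1 and Incenp were lower in both EnPGC-1 libraries than in either Ctrl PIP library, and Aurkb overlapped.

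Of the spindle checkpoint and the anaphase-promoting machinery, Bub1, a checkpoint kinase at kinetochores, was at 35.6 and 103 CPM with EnPGC-1, 83.9 and 128 CPM with SGC-CBP30, 108 and 104 CPM with Ctrl PIP, and 55.3 and 119 CPM with DMSO. Cdc20 was at 62.4 and 186 CPM with EnPGC-1, 128 and 165 CPM with SGC-CBP30, 186 and 174 CPM with Ctrl PIP, and 98.4 and 208 CPM with DMSO. Ube2c, the E2 enzyme that hands ubiquitin to the substrates of the complex, was at 52.0 and 189.8 CPM with EnPGC-1, 130.3 and 169 CPM with SGC-CBP30, 183 and 163 CPM with Ctrl PIP, and 91.5 and 240.3 CPM with DMSO. In all 3 genes the EnPGC-1 and DMSO libraries were the widest apart, and the 2 groups overlapped.

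At the centromere, Cenpa, the histone H3 variant that marks it, was at 74.0 and 251 CPM with EnPGC-1, 145 and 194 CPM with SGC-CBP30, 205 and 158 CPM with Ctrl PIP, and 107 and 259 CPM with DMSO. Cenpe, a kinesin that moves chromosomes to the spindle equator, was at 72.6 and 175 CPM with EnPGC-1, 153 and 232 CPM with SGC-CBP30, 142 and 138 CPM with Ctrl PIP, and 123 and 137 CPM with DMSO. The 4 groups overlapped in Cenpa, whereas in Cenpe both SGC-CBP30 libraries stood above the 4 libraries of Ctrl PIP and DMSO.

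Of the motors and the cytokinesis genes, Kif11, the kinesin that pushes spindle poles apart, was at 108 and 291 CPM with EnPGC-1, 239 and 354 CPM with SGC-CBP30, 276 and 269 CPM with Ctrl PIP, and 180.1 and 291 CPM with DMSO. Kif20a, a kinesin of the central spindle, was at 53.5 and 141 CPM with EnPGC-1, 125 and 174 CPM with SGC-CBP30, 148 and 152 CPM with Ctrl PIP, and 90.5 and 129.5 CPM with DMSO. Kif23, a kinesin of the centralspindlin complex, was at 51.0 and 118 CPM with EnPGC-1, 107 and 162 CPM with SGC-CBP30, 106 and 116 CPM with Ctrl PIP, and 77.0 and 95.2 CPM with DMSO. In Kif20a and Kif23 both Ctrl PIP libraries lay above both DMSO libraries, and in Kif23 both SGC-CBP30 libraries did too.

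Prc1, which bundles the microtubules of the spindle midzone, was at 43.2 and 124 CPM with EnPGC-1, 104 and 150.5 CPM with SGC-CBP30, 112 and 113 CPM with Ctrl PIP, and 74.6 and 103 CPM with DMSO. Hmmr, a spindle assembly protein, was at 44.6 and 103 CPM with EnPGC-1, 94.0 and 141 CPM with SGC-CBP30, 98.3 and 106 CPM with Ctrl PIP, and 69.4 and 84.7 CPM with DMSO. Foxm1, the transcription factor that drives many genes of the list, was at 52.2 and 111 CPM with EnPGC-1, 114 and 149 CPM with SGC-CBP30, 119.9 and 114 CPM with Ctrl PIP, and 84.7 and 96.4 CPM with DMSO. In Foxm1 both EnPGC-1 libraries lay below those of SGC-CBP30 and of Ctrl PIP, which in turn lay above both of DMSO, while EnPGC-1 and DMSO overlapped.

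**Figure D2:**
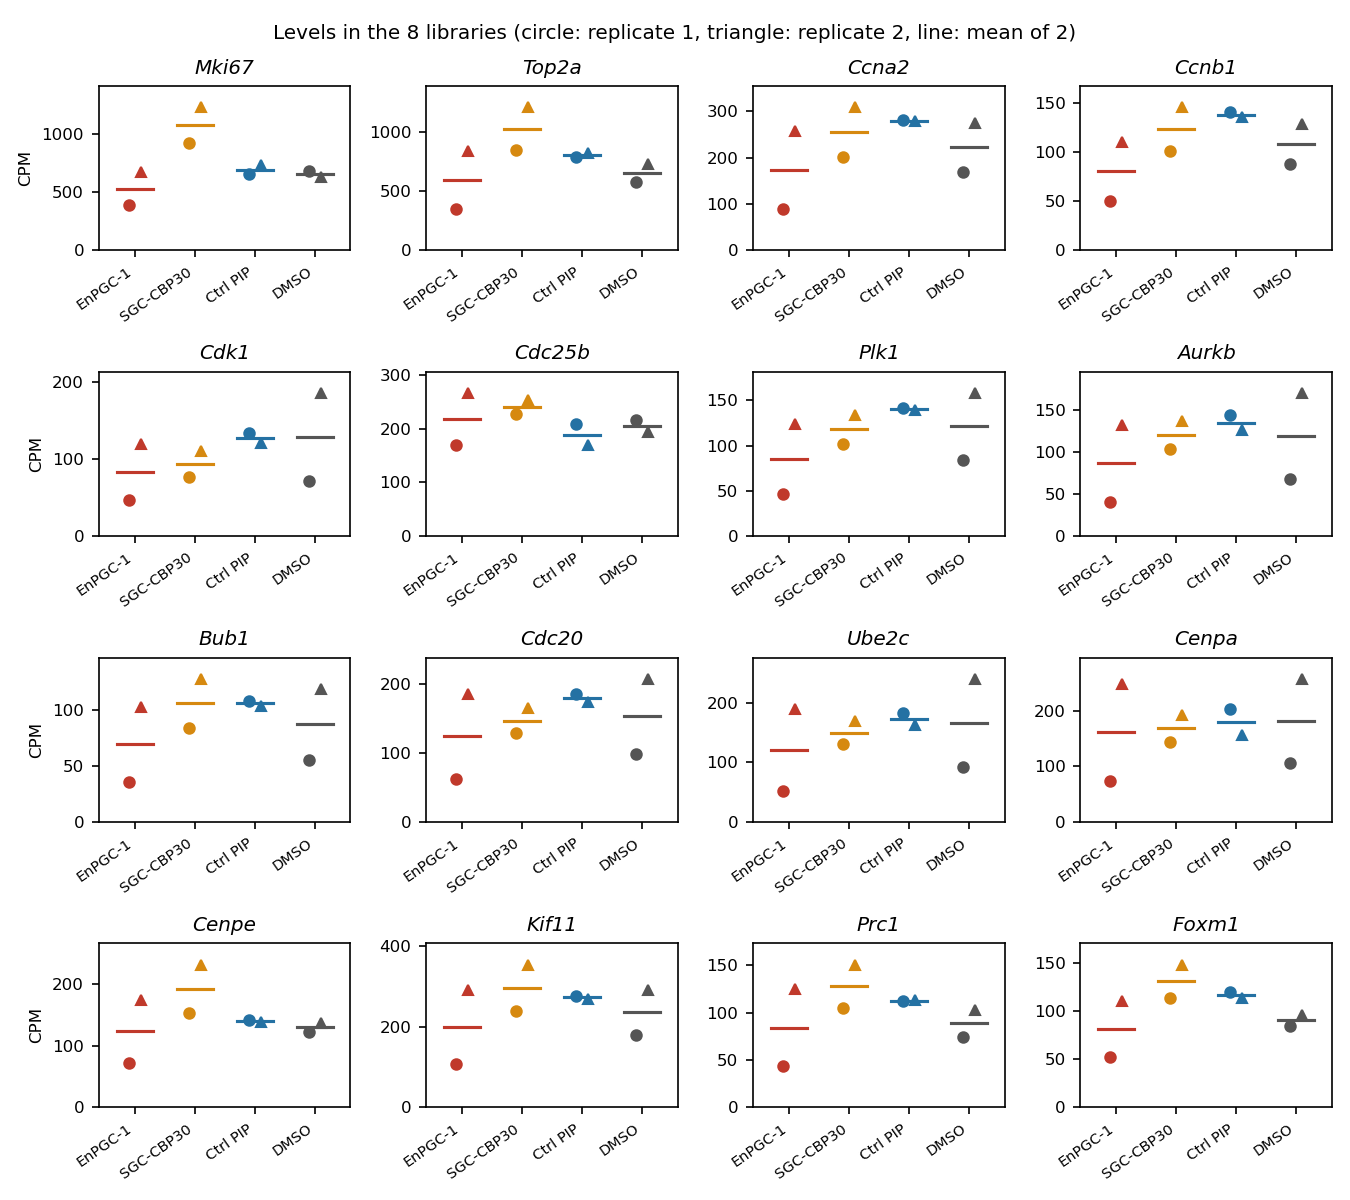
Levels in CPM (linear axes from 0) of 16 genes taken by role, with groups in the order EnPGC-1, SGC-CBP30, Ctrl PIP and DMSO on the horizontal axis, a circle for replicate 1, a triangle for replicate 2 and a line for the mean of the 2. Replicate 1 of EnPGC-1 is the lowest point of every panel, nearly level with Ctrl PIP replicate 2 for Cdc25b. The 2 libraries of Ctrl PIP lie close together for most genes, as for Ccna2 at 280.4 and 279.5 CPM.

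The positions of the genes bear on how their counts can be read. Of the 40 genes, 17 overlap another RefSeq gene, among them Ccna2 with Exosc9, Aurka with Cstf1, Cdc20 with Elovl1, Prc1 with Rccd1 and Foxm1 with Tex52, and 23 overlap none. The library kit keeps strand, but the sources used here do not say whether the counting used it, so counts of these 17 may include reads of their neighbours.

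EnPGC-1 set against DMSO gave fitted levels below DMSO for 39 of the 40 genes, with a median log2 fold change of -0.28, but no gene was called. Across all genes tested, 49.8% were below 0 and the median was 0.001. The genes ran from -0.63 for Cdk1 to 0.08 for Cdc25b, and their 95% intervals had a median half-width of 1.21, wider than any of these values. By edgeR's quasi-likelihood test with Benjamini-Hochberg adjustment over 16750 genes, 0 of the 40 were called (background 0% of all genes in either direction), and DESeq2 called 0. None had an unadjusted p under 0.05, against 1.81% of all genes lower and 0.8% higher. Nor were the groups apart in any of the 40, against 9.24% of all genes with both EnPGC-1 libraries below both of DMSO and 9.83% with both above.

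The smallest p-values in that comparison were those of Cdk1, with a log2 fold change of -0.63 (SE 0.57), Ccnb1, with -0.43 (SE 0.41), and Plk1, with -0.51 (SE 0.50). The adjusted p from edgeR was 0.998 for each of them. These tests took no account of replicate number, although same-numbered libraries of the 2 groups deviated together. Their correlation was 0.666 over all genes and 0.844 over the 40 genes. A test that pairs the libraries of these 2 groups alone was not run. Set within replicate numbers, the median of the 40 genes was -0.75 between the first libraries, where all 40 were lower with EnPGC-1, and -0.05 between the second libraries, where 24 were. Cdk1 differed by a similar amount in both, -0.61 and -0.63. The median was 0.32 without EnPGC-1 replicate 1 and 0.16 without DMSO replicate 2, and -1.20 without EnPGC-1 replicate 2. Its sign thus changed with the library left out, although between same-numbered libraries it stayed below 0. Leaving out a library also unbalances the replicate numbers of the 2 groups.

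EnPGC-1 set against Ctrl PIP, the control compound by its name, gave a median of -0.47, with 39 of the 40 genes below 0 against 45.9% of all genes tested and a median of 0.05 over all genes. Both EnPGC-1 libraries lay below both Ctrl PIP libraries in 10 genes: Ccna2, Ccnb1, Cdk1, Plk1, Bub1, Bub1b, Incenp, Cdca8, Kif20a and Foxm1. Those 10 of 40 compare with 21.7% of all genes tested. In no gene did both lie above, against 20.7% of all genes. The median by role ran from -0.60 for the 4 genes of the chromosomal passenger complex and -0.59 for the 4 of the spindle checkpoint to -0.40 for the 6 centromere and kinetochore genes. Cdc25b alone was above 0, at 0.21.

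No gene was called in that comparison by edgeR (0 of 40, background 0%) or by DESeq2, and 0 had an unadjusted p under 0.05, against 2.77% of all genes lower and 1.71% higher. Ccnb1 came closest, with a log2 fold change of -0.78 (SE 0.41) and an adjusted p of 0.812 from edgeR, followed by Incenp at -0.57 (SE 0.39) and Foxm1 at -0.52 (SE 0.36), with the same adjusted p. Between the first libraries the median was -1.49, with all 40 genes lower with EnPGC-1, and between the second libraries it was 0.10, with 13 lower. Without EnPGC-1 replicate 1 it was 0.06.

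Ctrl PIP set against DMSO gave a median of 0.21, with 37 of the 40 genes above 0, against a median of -0.05 and 58.4% below 0 over all genes tested. Both Ctrl PIP libraries lay above both DMSO libraries in 13 genes, 32.5% of the list against 8.34% of all genes: Top2a, Ccna2, Ccnb1, Bub1b, Cenpe, Cenpf, Kif20a, Kif20b, Kif23, Prc1, Ect2, Hmmr and Foxm1. These include 2 of the 3 cytokinesis genes and 3 of the 7 kinesins, and no gene of the passenger complex. In no gene did both lie below, against 7.83% of all genes.

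Again 0 of the 40 genes were called by edgeR (background 0%) or DESeq2, and 0 had an unadjusted p under 0.05, against 0.233% of all genes higher and 0.364% lower. The smallest p-values were those of Foxm1, at 0.37 (SE 0.36), Hmmr, at 0.40 (SE 0.41), and Kif20a, at 0.45 (SE 0.46), on the log2 scale, each with an edgeR adjusted p of 1. Without DMSO replicate 1 the median of the list was -0.06, and without DMSO replicate 2 it was 0.71. Between the first libraries the median was 0.71 and between the second libraries -0.13.

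SGC-CBP30 set against DMSO divided the list. Its median was 0.23, against -0.04 over all genes tested, and 11 of the 40 genes were below 0, against 52.7% of all genes. The 2 proliferation markers had a median of 0.69, the 3 cytokinesis genes 0.52, the 7 kinesins 0.43 and Foxm1 0.54, while the 2 genes of the anaphase-promoting machinery had -0.11, the 3 mitotic kinases -0.04 and the 4 passenger complex genes -0.04. Cdk1 was lowest, at -0.46. Both SGC-CBP30 libraries lay above both DMSO libraries in 12 of the 40 genes, against 16.2% of all genes: Mki67, Top2a, Cdc25b, Cenpe, Cenpf, Kif20b, Kif23, Prc1, Anln, Ect2, Hmmr and Foxm1. In none did both lie below, against 14.5% of all genes.

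By edgeR 0 of the 40 genes were called (background 0%), and DESeq2 called 0. None had an unadjusted p under 0.05, against 1.57% of all genes higher and 2.82% lower. Mki67 had the smallest p, with a log2 fold change of 0.72 (SE 0.32), followed by Kif23 at 0.64 (SE 0.41) and Kif20b at 0.48 (SE 0.31), each with an edgeR adjusted p of 0.943. The median of the list was -0.07 without DMSO replicate 1 and -0.04 without SGC-CBP30 replicate 2, and it was 0.69 without DMSO replicate 2. Mki67 lay between 0.51 and 0.91 with any 1 library left out, but at 0.32 (adjusted p 0.965) with each library's trend on transcript length and GC content removed. Kif20b was at 0.22 with those trends removed, and limma on the authors' rlog values, which shrink differences, gave 0.44 for Mki67.

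EnPGC-1 set against SGC-CBP30 gave a median of -0.53, with all 40 genes below 0, against 47.1% of all genes and a median of 0.02 over all genes tested. The 2 proliferation markers had a median of -0.91, and the spindle checkpoint, cytokinesis, kinesin and spindle assembly genes lay between -0.62 and -0.59 by role. The anaphase-promoting machinery had -0.27 and the cyclins with CDK1 and the CDC25 phosphatases -0.30. Both EnPGC-1 libraries lay below both SGC-CBP30 libraries in 5 genes, Mki67, Top2a, Cenpf, Kif20b and Foxm1, which is 12.5% of the list against 14.7% of all genes.

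Mki67 was the one gene with an unadjusted p under 0.05 in any of the 6 comparisons, against 0.931% of all genes lower and 1.1% higher here. By edgeR's quasi-likelihood test, fitted across all genes, its log2 fold change was -1.03 (SE 0.32) with an unadjusted p of 0.0168 and an adjusted p of 1. It averaged 528 ± 205 CPM with EnPGC-1 and 1076 ± 215 CPM with SGC-CBP30 (SD, n = 2 each). Kif20b followed at -0.69 (SE 0.31) and Foxm1 at -0.68 (SE 0.36), and 0 of the 40 genes were called by edgeR (background 0%) or DESeq2. The first libraries gave a median of -1.18 with all 40 genes lower, and the second a median of -0.22 with 28 lower. Without EnPGC-1 replicate 1 the median was 0.006, and Mki67 was at -0.67. With the trends on length and GC content removed, Mki67 was at -0.68.

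SGC-CBP30 set against Ctrl PIP gave no common direction. The median was -0.003, with 22 genes below 0, against 0.01 over all genes tested. Both SGC-CBP30 libraries lay above both Ctrl PIP libraries in 5 genes, Mki67, Top2a, Cdc25b, Cenpe and Cenpf, and below in 4, Cdk1, Cdc20, Plk1 and Mad2l1, a checkpoint protein that holds back CDC20. These 5 and 4 of the 40 compare with 31.5% of all genes above and 30.2% below. Mki67 had a log2 fold change of 0.64 (SE 0.32), Cenpe 0.46 (SE 0.42) and Cdc25b 0.35 (SE 0.27), each with an edgeR adjusted p of 0.871. With all 8 libraries in the fit 0 of the 40 genes were called (background 0%), and DESeq2 called 0. In that fit the 4 groups share 1 estimate of the spread. The common coefficient of variation was 0.415 over all 8 libraries but 0.159 within SGC-CBP30 and Ctrl PIP. None had an unadjusted p under 0.05, against 1.43% of all genes higher and 2.56% lower. An edgeR fit on these 4 libraries alone called Mki67 at 0.63 (adjusted p 0.0485). Mki67 was 1 of the 40 genes, in a fit that called 2470 of all genes. That fit filtered low counts on its own 4 libraries, and the number of genes it tested is not given here. The main fit tested 16750 genes, so calls were common among all genes in the smaller fit. With the trends on length and GC content removed from all 8 libraries, Mki67 was at 0.15 (adjusted p 0.974) and Cenpe at 0.05 (adjusted p 0.994), while Cdc25b was at 0.38.

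**Figure D3:**
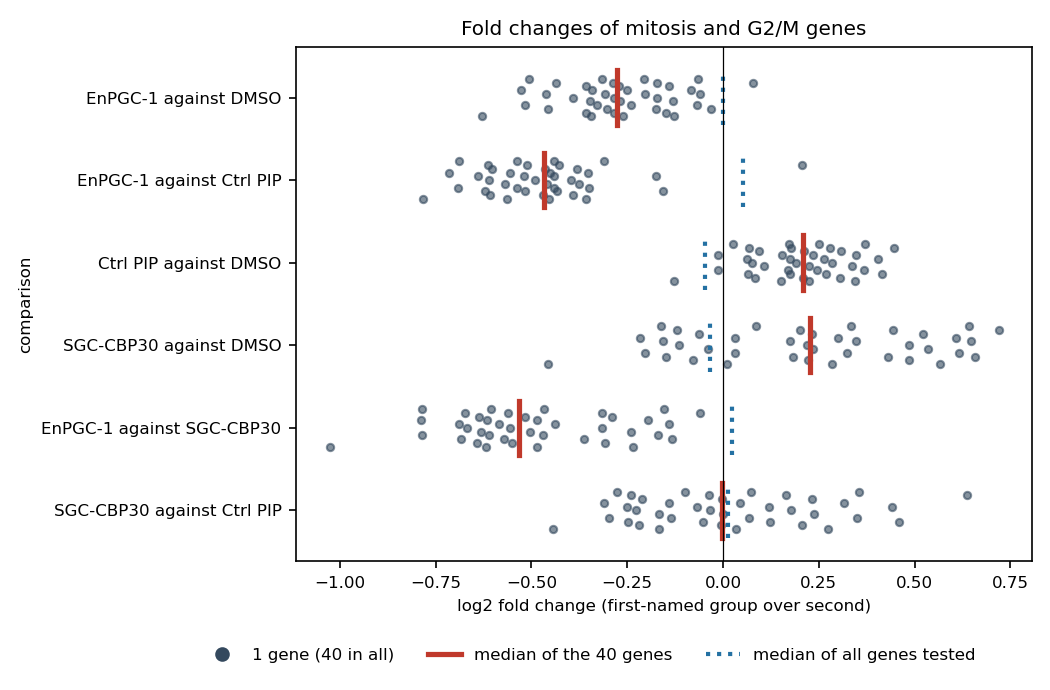
Log2 fold change (horizontal axis, first-named group over second) of the 40 genes in each of the 6 comparisons (rows), 1 dot a gene, with the median of the 40 in red and of all 16750 genes tested as a dotted line. The cloud lies left of 0 in the 3 comparisons with EnPGC-1 on top, with medians of -0.28, -0.47 and -0.53, and spans 0 for SGC-CBP30 against Ctrl PIP.

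Comparisons that share a group share its libraries, so the low first EnPGC-1 library enters all 3 comparisons of that compound, and DMSO replicate 1 enters all 3 against DMSO. The intervals leave room for sizeable differences between the compounds. For EnPGC-1 against Ctrl PIP, Ccnb1 had a 95% interval from -1.76 to 0.20 on the log2 scale, and for SGC-CBP30 against DMSO, Mki67 had one from -0.05 to 1.49. The absence of calls therefore does not show that the compounds act alike.

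Transcript length ran with which library was highest. The 24 genes highest in SGC-CBP30 replicate 2 had a longest transcript of 2489 to 11130 bases, with a median of 3989, and the 15 highest in DMSO replicate 2 had 1531 to 7557 bases, with a median of 2634. The log2 CPM in SGC-CBP30 replicate 2 minus that in DMSO replicate 2 had a median of -0.18 over the 20 shorter genes and 0.39 over the 20 longer ones. Its Spearman correlation with length was 0.55 over the 40 genes and 0.46 over 15430 genes with a known length, within the same 2 libraries. Cenpf (11130 bases), Mki67 (10061 bases) and Cenpe (7910 bases) were among the genes highest in SGC-CBP30, and Spc25 (1869 bases), a subunit of the NDC80 kinetochore complex, and Ube2c (2191 bases) among those highest in DMSO. Cdk1 (4375 bases) and Mad2l1 (7557 bases) went against this order.

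**Figure D4:**
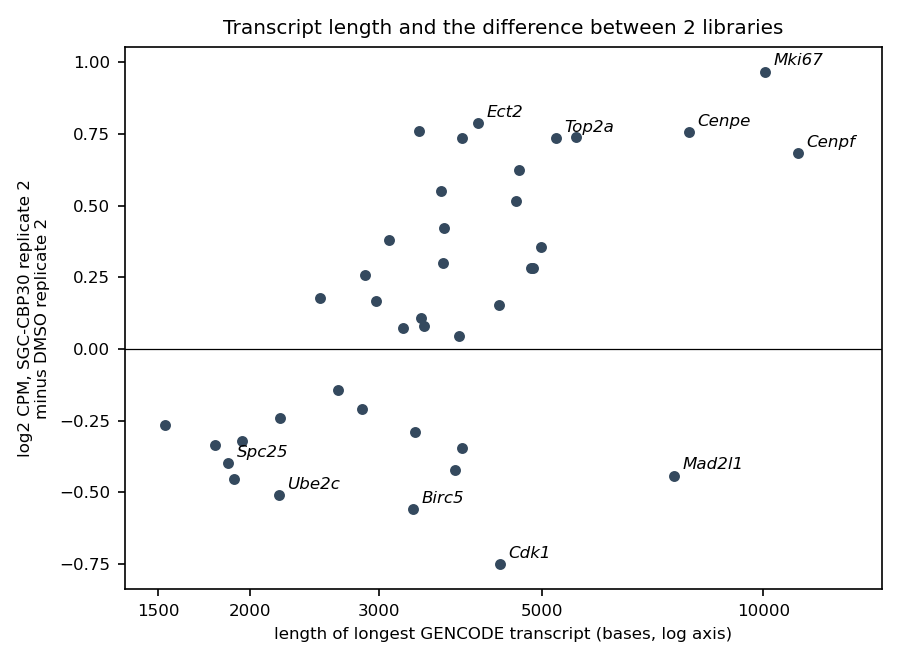
Length of the longest annotated transcript (horizontal log axis, bases) against log2 CPM in SGC-CBP30 replicate 2 minus DMSO replicate 2 (vertical axis), 1 point for each of the 40 genes. The 3 longest labelled genes, Cenpf, Mki67 and Cenpe, lie above 0, and the median is -0.18 over the 20 shorter genes and 0.39 over the 20 longer ones.

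Length was related to level in all libraries, not in this list alone. The Spearman correlation across all genes of a library's deviation with length was 0.49 and -0.53 with EnPGC-1, 0.54 and 0.48 with SGC-CBP30, -0.53 and -0.20 with Ctrl PIP, and 0.56 and -0.61 with DMSO. The 2 libraries of EnPGC-1, and those of DMSO, thus had opposite signs. The ribosomal RNA gene Rn18s-rs5, a sign of how well poly(A) selection worked, stood at 2307 and 9044 CPM with EnPGC-1, 1866 and 2166 CPM with SGC-CBP30, 2311 and 1799 CPM with Ctrl PIP, and 1119 and 10073 CPM with DMSO. It was highest in the second libraries of EnPGC-1 and DMSO.

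With each library's trend on length and GC content removed, 39 of the 40 genes were still lowest in EnPGC-1 replicate 1 and 1 was lowest in Ctrl PIP replicate 2. The highest library was DMSO replicate 2 for 20 genes, SGC-CBP30 replicate 2 for 18 and EnPGC-1 replicate 2 for 2. The median of the list was -0.32 for EnPGC-1 against DMSO, -0.51 for EnPGC-1 against Ctrl PIP and -0.47 for EnPGC-1 against SGC-CBP30. It was 0.19 for SGC-CBP30 against DMSO, with 7 of the 40 genes below 0 in place of 11, -0.05 for SGC-CBP30 against Ctrl PIP, with 26 below 0 in place of 22, and 0.20 for Ctrl PIP against DMSO, with 4 below 0 in place of 3. EdgeR called 0 of the 40 genes in any comparison.

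Other genes of the cell cycle were set beside the list. The 64 further mitosis and G2/M genes, which include condensins, further kinesins and subunits of the anaphase-promoting complex, had medians of -1.04 and 0.21 with EnPGC-1, 0.01 and 0.43 with SGC-CBP30, 0.24 and 0.17 with Ctrl PIP, and -0.36 and 0.29 with DMSO, on the same centred log2 CPM scale. This is nearly the profile of the 40. The 45 DNA replication genes, which include the MCM helicase, polymerases and the replication clamp, had medians of -1.01 and 0.08 with EnPGC-1, -0.17 and 0.20 with SGC-CBP30, 0.41 and 0.37 with Ctrl PIP, and -0.45 and 0.58 with DMSO. The 22 G1 cyclins, CDKs and CDK inhibitors had medians closer to 0, at -0.34 and -0.04 with EnPGC-1, -0.10 and 0.17 with SGC-CBP30, 0.17 and 0.02 with Ctrl PIP, and -0.01 and 0.33 with DMSO. Single G1 genes went both ways: for EnPGC-1 against Ctrl PIP, 12 lay below 0 and 10 above, from -0.95 to 3.88, while the 40 ran from -0.78 to 0.21. The 3.88 (SE 1.78) was that of Ccnd1, a gene near the floor. It was at 5.76 and 0.111 CPM with EnPGC-1 and 0.24 and 0.154 CPM with Ctrl PIP. Cdkn2a, Cdkn2b and Cdkn1c, also above 0, reached at most 1.70, 0.996 and 0.724 CPM in any library.

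**Figure D5:**
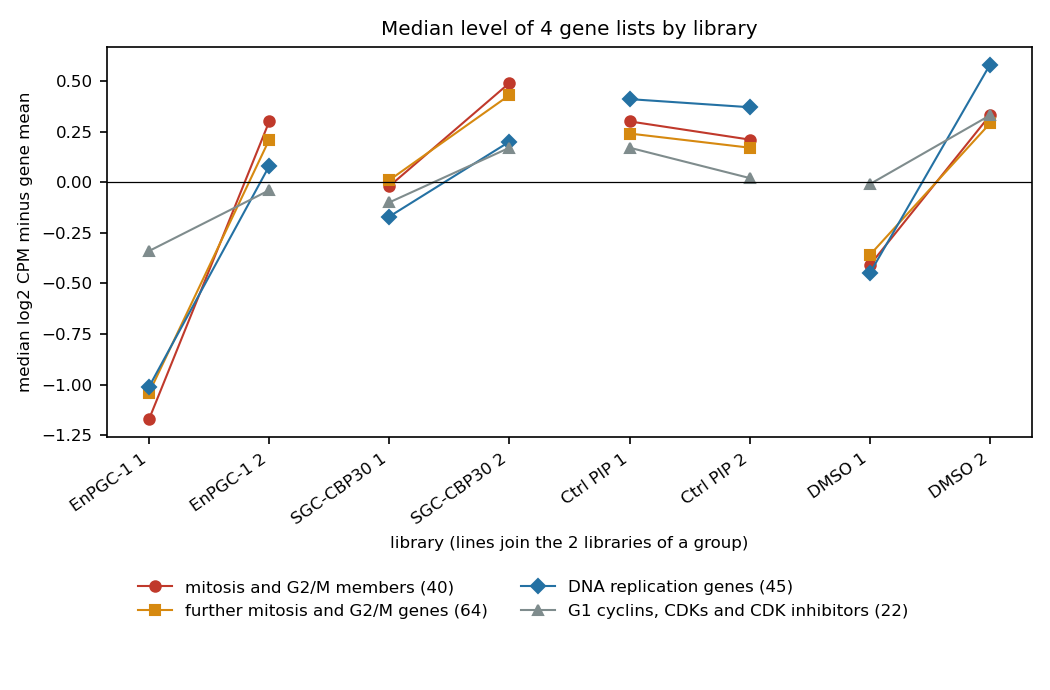
Median over genes of log2 CPM minus the gene's mean (vertical axis) for 4 cell-cycle lists in each library (horizontal axis), with lines joining the 2 libraries of a group. The 40 mitosis and G2/M genes, the further 64 and the 45 DNA replication genes all have their lowest point in EnPGC-1 replicate 1, at -1.17, -1.04 and -1.01.

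The DNA replication genes stood below Ctrl PIP without overlap more often than the mitosis genes did. For EnPGC-1 against Ctrl PIP, both EnPGC-1 libraries lay below both Ctrl PIP libraries in 39 of the 45 replication genes and in 10 of the 40 mitosis genes, against 21.7% of all genes, and the medians were -0.79 and -0.47. For SGC-CBP30 against Ctrl PIP the median of the replication genes was -0.38, where 44 of 45 lay below 0 and 36 had no overlap, against 30.2% of all genes, while the mitosis genes had a median of -0.003. The difference between the 2 lists was not tested. Log2 CPM in SGC-CBP30 minus that in Ctrl PIP ran with transcript length over all genes with a known length. The Spearman correlation was 0.39 between the first libraries and 0.27 between the second. For EnPGC-1 minus Ctrl PIP it was 0.37 and -0.19. The part of length and GC content in the medians and counts of the replication genes was not tested. None of the 45, of the 64 or of the 22 was called by edgeR in any comparison (background 0%). At an unadjusted p under 0.05, 8 of the 45 replication genes, 1 of the 64 further mitosis genes and 2 of the 22 G1 genes were lower with EnPGC-1 than with Ctrl PIP, against 2.77% of all genes.

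Mcm2, a subunit of the replicative helicase, was at 99.1 and 127 CPM with EnPGC-1, 157 and 194 CPM with SGC-CBP30, 225 and 234 CPM with Ctrl PIP, and 151 and 219.9 CPM with DMSO. Its log2 fold change for EnPGC-1 against Ctrl PIP was -1.02 (SE 0.26), with an edgeR adjusted p of 0.812, and its 2 EnPGC-1 libraries were the lowest of the 8. Uhrf1, which carries DNA methylation through replication, was at 108 and 208 CPM with EnPGC-1, 256 and 330.3 CPM with SGC-CBP30, 329 and 358 CPM with Ctrl PIP, and 203 and 305 CPM with DMSO. Its log2 fold change in the same comparison was -1.12 (SE 0.37), with the same adjusted p.

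Of the further mitosis genes, Cit, the citron kinase of the midbody, was at 33.5 and 59.1 CPM with EnPGC-1, 89.1 and 110.5 CPM with SGC-CBP30, 62.1 and 68.9 CPM with Ctrl PIP, and 55.2 and 51.5 CPM with DMSO. Knl1, a kinetochore scaffold for checkpoint proteins, was at 41.5 and 71.2 CPM with EnPGC-1, 90.7 and 141 CPM with SGC-CBP30, 73.7 and 78.4 CPM with Ctrl PIP, and 68.1 and 61.1 CPM with DMSO. Both were highest in the SGC-CBP30 libraries, as Mki67 was. Their log2 fold changes for EnPGC-1 against SGC-CBP30 were -1.11 (SE 0.29) for Cit and -1.04 (SE 0.33) for Knl1, with an edgeR adjusted p of 1 each. The part of transcript length and GC content in these differences was not tested.

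Of the G1 genes, Cdkn1a, the CDK inhibitor p21, was at 6.78 and 12.9 CPM with EnPGC-1, 4.88 and 3.86 CPM with SGC-CBP30, 12.6 and 5.09 CPM with Ctrl PIP, and 11.6 and 21.8 CPM with DMSO. Both SGC-CBP30 libraries lay below the 6 others, replicate 1 only narrowly below Ctrl PIP replicate 2. Its log2 fold change for SGC-CBP30 against DMSO was -1.93 (SE 0.57), with an edgeR adjusted p of 0.943. Against Ctrl PIP it was -1.015 (SE 0.556), with an edgeR adjusted p of 0.871. E2f4, a repressive E2F that is part of the DREAM complex, was at 93.2 and 108 CPM with EnPGC-1, 104 and 111 CPM with SGC-CBP30, 142 and 144 CPM with Ctrl PIP, and 120.4 and 152 CPM with DMSO. Its libraries of EnPGC-1 and of SGC-CBP30 all lay below those of the other 2 groups. Its log2 fold change for SGC-CBP30 was -0.34 (SE 0.20) against DMSO and -0.41 (SE 0.20) against Ctrl PIP, with edgeR adjusted p of 0.943 and 0.871. For EnPGC-1 it was -0.44 (SE 0.20) against DMSO and -0.50 (SE 0.20) against Ctrl PIP, with edgeR adjusted p of 0.998 and 0.812.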

How the data were processed

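Libraries of poly(A) RNA were made with a stranded kit, per the labels' protocols. The authors deposited whole-number counts per Entrez gene ID and regularized log2 values (rlog) of 16442 genes. The submitters' processing notes name mm10, HISAT2, StringTie and DESeq2 with no roles, and the sources used here give neither the counter nor its strand setting. Each header name of the rlog table stands 1 column left of its values, and these values entered 1 alternative only. There were 0 columns of other samples.

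Counts were tested with edgeR 4.0.16 (quasi-likelihood, robust, R 4.3.3) on all 8 libraries, after filterByExpr and TMM scaling, with 1 mean per group, which left 16750 genes and 4 residual degrees of freedom. Tests were two-sided, with Benjamini-Hochberg adjustment at 0.05 over all genes of a comparison. Levels are CPM with TMM library sizes; a prior count of 2 was added for log2 CPM. Total counts were 38890043 to 55491261 per library. No 2 libraries held identical counts. The tests were checked on simulated counts. For EnPGC-1 against DMSO they recovered 6 of 200 genes changed 2-fold, 112 of 200 changed 4-fold and 138 of 200 changed 8-fold. Differences of 2-fold were thus mostly missed.

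Symbols, positions and promoter windows came from RefSeq tables on GRCm38.p6, which matched 99.8% of IDs, and lengths from GENCODE mouse release M21, known for 92.1% of genes tested. Members, lists and alternatives were chosen with earlier results of these data known. Genes given per library are 16 picked by role, the 3 smallest p-values of each comparison, the 3 farthest from the median profile (a tie adds 1) and, from each further list, the 2 smallest p-values in its lowest-p comparison. Alternatives were DESeq2 1.42.0 (size factors, Wald test), no filter, a block for the replicate number, a fit of only the 4 libraries compared, limma 3.58.1 on rlog values, within-number values for EnPGC-1 against DMSO and each library left out. Offsets for length and GC content (mgcv 1.9.3) and values between first and between second libraries in the other comparisons were chosen after seeing the data.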

Additional observations from a re-analysis of the deposited data

How the results depend on the processing

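The common coefficient of variation was 0.415 over all 8 libraries, 0.562 within EnPGC-1 and DMSO and 0.159 within SGC-CBP30 and Ctrl PIP. With 2 libraries a group, no library could be tested as an outlier within its group. Calls of the 40 genes stayed at 0 under every alternative except the edgeR fit on the 4 libraries of SGC-CBP30 and Ctrl PIP alone. That fit called 1 of the 40 (Mki67, adjusted p 0.0485) and 2470 of all genes (1138 higher, 1332 lower), where the main fit tested 16750. In all genes DESeq2's Wald test called 19 for EnPGC-1 against DMSO, 36 for EnPGC-1 against Ctrl PIP, 2 for Ctrl PIP against DMSO, 64 for SGC-CBP30 against DMSO, 16 for EnPGC-1 against SGC-CBP30 and 31 for SGC-CBP30 against Ctrl PIP, where edgeR called 0. Leaving out each library in turn, calls in all genes and in the 40 stayed at 0, and the list's median ran from -1.20 to 0.32 for EnPGC-1 against DMSO, -1.46 to 0.057 for EnPGC-1 against Ctrl PIP, -0.059 to 0.71 for Ctrl PIP against DMSO, -0.069 to 0.69 for SGC-CBP30 against DMSO, -1.47 to 0.006 for EnPGC-1 against SGC-CBP30 and -0.27 to 0.21 for SGC-CBP30 against Ctrl PIP (0.04 without Ctrl PIP replicate 1). Between second libraries it turned to 0.10 for EnPGC-1 against Ctrl PIP, -0.13 for Ctrl PIP against DMSO and 0.30 for SGC-CBP30 against Ctrl PIP, and without a filter it was 0.002 for the last. For EnPGC-1 against DMSO, leaving out a library moved Ccnb1 between -1.11 and 0.033, Cdk1 between -1.47 and 0.23 and Plk1 between -1.38 and 0.042 (0.016 without DMSO replicate 2). The cause of these turns was not tested. The other 89 medians and 265 values of named genes kept their direction and side of the threshold; Mki67 went to -0.65 with limma on rlog values for EnPGC-1 against SGC-CBP30. Replicate numbers were not taken as pairs in the main fit, since not every pair of groups deviated together. Same-numbered libraries of EnPGC-1 and DMSO did, with a correlation of 0.666 over all genes and 0.844 over the 40 genes. The replicate block set the same effect for all groups, so it could not treat EnPGC-1 and DMSO apart. Pairing within these 2 groups alone was not tested. Over all genes the correlation was 0.227 for SGC-CBP30 and DMSO and 0.231 for EnPGC-1 and SGC-CBP30. It was -0.252 for Ctrl PIP and DMSO, -0.226 for EnPGC-1 and Ctrl PIP and -0.039 for SGC-CBP30 and Ctrl PIP. With the replicate block 0 of the 40 genes were called in each comparison, and the medians were -0.36, -0.68, 0.33, 0.26, -0.64 and -0.07 in the order of comparisons above.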
